A study of Homo sapiens with 8 samples.

Results

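This account covers 9 genes for proteins of the extracellular matrix and of its turnover, followed through knockdown of METTL14 in a pair of acute myeloid leukaemia lines. The genes were taken by symbol: FN1, SPP1, VCAN, MFAP4, TGFBI, MMP9, TIMP1, PLAUR and PLAU. Of these 9 genes, 8 have a row in both deposited tables, out of 16726 genes listed in each, and TGFBI was not analysed here. The genes were chosen by their RPKM values in the 4 groups, where RPKM scales a gene's reads by its length in kilobases and by the library's reads in units of 1000000. Their levels and changes are therefore a description and carry no p-value.

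Poly(A) RNA was sequenced from NB4 cells and from MM6 (MonoMac 6) cells in 8 libraries, 2 per group, at 23272126 to 28814911 reads over the listed genes. In each line the control group carried the non-specific hairpin shNS and the knockdown group a lentiviral pLKO.1 hairpin against METTL14, shM14-#2, called shM14 below. All 4 groups were thus transduced and went through 2 passages in puromycin at 0.5 µg/mL, and 1 hairpin stands for the knockdown. The labels do not say whether the 2 libraries of a group came from separate cultures, so any p-value measures the spread between these libraries, which may be technical.

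METTL14 had 14.1 and 12.5 RPKM in the NB4 controls and 8.35 in each NB4 shM14 library. In MM6 it had 12.5 and 13.4 RPKM in the controls and 6.54 and 6.55 with shM14, so the targeted gene was lower in every shM14 library. Both lines are labelled as acute monocytic leukemia, while NB4 is known as a promyelocytic line. The summed level of a monocyte and macrophage marker list, 18 of 19 genes with a row, was 59.5 to 63.7 RPKM in the NB4 controls and 10226 to 15549 RPKM in the MM6 controls. The lysozyme gene LYZ led it in MM6 with 7521 RPKM. A promyelocyte granule list, with all 8 genes measured, summed to 2687 to 2795 RPKM in the NB4 controls and 4648 to 4821 RPKM in the MM6 controls, and it did not set NB4 above MM6. MPO led that list in NB4 with 2445 RPKM and ELANE in MM6 with 1654 RPKM. ELANE had 0.0462 and 0.0387 RPKM in the replicate 1 libraries of NB4 and 6.83 and 6.45 RPKM in the replicate 2 libraries, so these pairs stood apart for a gene that is abundant in MM6.

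Fibronectin, versican and the microfibril-associated protein MFAP4 are parts of the matrix, and osteopontin is a secreted phosphoprotein of matrix and inflamed tissue. Cells read fibronectin and osteopontin through integrins and, for osteopontin, also CD44, and monocytes and macrophages are known sources of several of these proteins. Matrix is cut by metalloproteinases such as MMP9, which TIMP1 inhibits, and by plasmin, which forms where urokinase (PLAU) sits on its receptor (PLAUR). METTL14 is a core subunit of the methyltransferase that places N6-methyladenosine (m6A) on mRNA.

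Promoters are shown for FN1, SPP1, TIMP1 and PLAUR, since these are the 4 members that were higher in both MM6 shM14 libraries than in both MM6 controls. Each line holds the 250 bases before an annotated start of transcription, 5′ to 3′ on the gene's strand, from the RefSeq table of build GRCh38.p14, in which 6 of the 8 members were matched. Capitals mark the motif matches described after them. The positions are chr2:215436069-215436318 on the minus strand for FN1, chr4:87975464-87975713 on the plus strand for SPP1, chrX:47582186-47582435 on the plus strand for TIMP1 and chr19:43670170-43670419 on the minus strand for PLAUR.
FN1: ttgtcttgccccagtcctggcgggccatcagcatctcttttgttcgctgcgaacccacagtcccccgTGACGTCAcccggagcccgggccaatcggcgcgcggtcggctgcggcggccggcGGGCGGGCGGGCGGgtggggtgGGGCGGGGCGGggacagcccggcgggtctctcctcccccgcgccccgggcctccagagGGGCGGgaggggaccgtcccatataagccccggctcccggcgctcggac
SPP1: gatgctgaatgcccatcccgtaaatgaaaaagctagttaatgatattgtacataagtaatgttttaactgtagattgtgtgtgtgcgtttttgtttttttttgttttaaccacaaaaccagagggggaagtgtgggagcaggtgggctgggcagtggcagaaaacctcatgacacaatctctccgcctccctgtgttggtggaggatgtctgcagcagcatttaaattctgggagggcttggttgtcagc
TIMP1: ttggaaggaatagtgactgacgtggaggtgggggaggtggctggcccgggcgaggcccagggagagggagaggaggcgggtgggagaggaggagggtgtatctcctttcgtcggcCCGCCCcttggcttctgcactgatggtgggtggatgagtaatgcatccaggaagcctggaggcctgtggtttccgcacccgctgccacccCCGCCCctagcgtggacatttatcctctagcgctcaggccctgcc
PLAUR: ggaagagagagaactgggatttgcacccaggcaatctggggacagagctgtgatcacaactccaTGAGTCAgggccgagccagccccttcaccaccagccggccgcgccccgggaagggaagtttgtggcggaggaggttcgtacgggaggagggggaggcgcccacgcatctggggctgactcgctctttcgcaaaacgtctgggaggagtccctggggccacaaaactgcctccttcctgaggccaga

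The search read both strands, from 250 bases before to 50 bases after the start, for AP-1 (TGANTCA), CRE (TGACGTCA), TATA box (TATAAA), GC box (GGGCGG), E-box (CACGTG), PU.1 core (GAGGAAG) and NF-kB letters. The FN1 window held 1 CRE match at -183 to -176 and 6 GC box matches between -129 and -44, some of which overlap each other. A CRE match was present in 1.85% and a GC box match in 44.95% of all 35116 promoter windows of the same length. The TIMP1 window held 2 GC box matches, which begin at -135 and -45. The PLAUR window held 1 AP-1 match, TGAGTCA, at -186 to -180, and an AP-1 match was present in 7.71% of all windows. None of the 7 motifs was found in the SPP1 window, which says only that those letters are not there. A match to the TATA box was present in 11.53% of all windows, to the E-box in 7.26%, to the PU.1 core in 13.6% and to NF-kB in 1.91%, and the windows of these 4 genes held none. The share of G and C was 76.67% for FN1, 65% for TIMP1, 64% for PLAUR and 47.67% for SPP1, beside a median of 58.67% over all windows. No motif of this set was in all 4 windows, while FN1 and TIMP1 both held GC box matches. The window of VCAN and a window of PLAU, genes that were not higher with shM14 in MM6, held GC box matches too. The plot of motif positions sets them side by side.

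**Figure D1:**
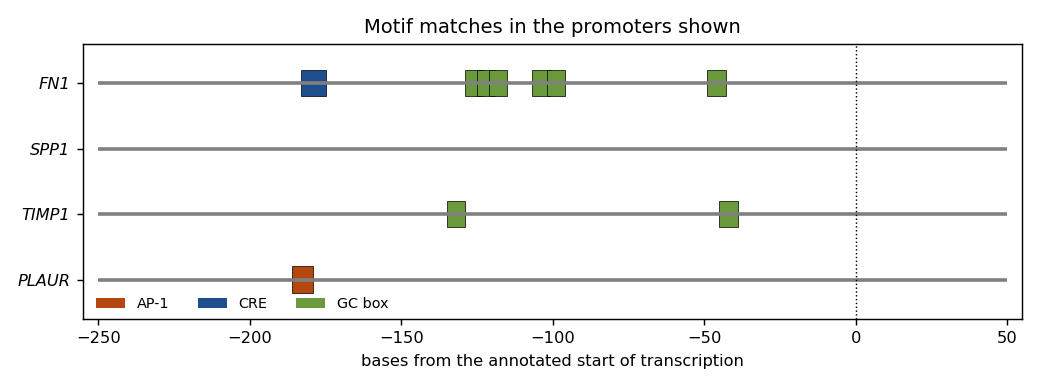
Motif matches in the 4 promoters shown. The x axis is the distance in bases from the annotated start of transcription, each grey line is 1 promoter window and coloured boxes are matches to AP-1, CRE or GC box letters. FN1 has a CRE match and 6 GC box matches, TIMP1 has 2 GC box matches, PLAUR has 1 AP-1 match and SPP1 has none.

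FN1 (gene ID 2335) encodes fibronectin, the glycoprotein that links integrins to other matrix proteins. The MM6 controls had 17.6 and 22.8 RPKM, beside 109 and 95.8 RPKM with shM14. Both shM14 libraries lay far above both controls. The means were 20.2 ± 3.68 and 102 ± 9.47 RPKM (SD, n = 2 libraries each), a 5.07-fold difference. On the log2(RPKM + 1) scale, which understates differences of genes with low RPKM, the difference was 2.30 with a standard error (SE) of 0.18. Of the 11895 genes fitted in MM6, 6 had a larger rise. In NB4 FN1 was close to absent, at 0.235 and 0.216 RPKM in the controls and 0.203 and 0.247 RPKM with shM14. These NB4 groups overlapped, and they rested on 132 and 133 reads in all. At under 1 RPKM, FN1 was not fitted in NB4.

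SPP1 (gene ID 6696) encodes osteopontin, a ligand of integrins and CD44. In NB4 it had 8.10 and 7.96 RPKM in the controls and 31.0 and 29.0 RPKM with shM14, so the groups were well apart and the replicates close. The NB4 means were 8.03 ± 0.101 and 30.0 ± 1.46 RPKM (SD, n = 2 each). The difference was 3.74-fold, or 1.78 (SE 0.05) on the log2(RPKM + 1) scale, and 14 of 11531 genes fitted in NB4 had a larger rise. The MM6 libraries had 1.06 RPKM in each control and 11.9 and 28.0 RPKM with shM14. The MM6 controls matched each other, while the shM14 libraries differed by 2.35-fold. The MM6 means were 1.06 ± 0.0045 and 20.0 ± 11.4 RPKM (SD, n = 2 each), an 18.8-fold difference. On the log2(RPKM + 1) scale it was 3.23 (SE 0.38), and none of the 11895 genes fitted in MM6 had a larger rise. Without shM14 replicate 2 it was 2.65 and without shM14 replicate 1 it was 3.82. With a pseudocount of 0.1 in place of 1 it was 3.98. The MM6 values rested on 96 reads in the controls and 1799 with shM14.

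The 2 ligand genes differed in where they were high. In the controls FN1 was 89.6-fold higher in MM6 than in NB4, while SPP1 was 7.57-fold higher in NB4 than in MM6. With shM14 the difference between lines in FN1 was 456-fold, and that in SPP1 was 1.50-fold in favour of NB4. RPKM is scaled within each library, but the lines' tables were deposited separately, and levels are set across them with that limit. For FN1 the order of groups was MM6 shM14, MM6 shNS, then the NB4 groups, which were not separated. For SPP1 the order was NB4 shM14, MM6 shM14, NB4 shNS, then MM6 shNS, with no overlap, although the higher MM6 shM14 library, at 28.0 RPKM, lay just under the lower NB4 shM14 library, at 29.0 RPKM. The plot of RPKM in each library shows these patterns for every member.

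**Figure D2:**
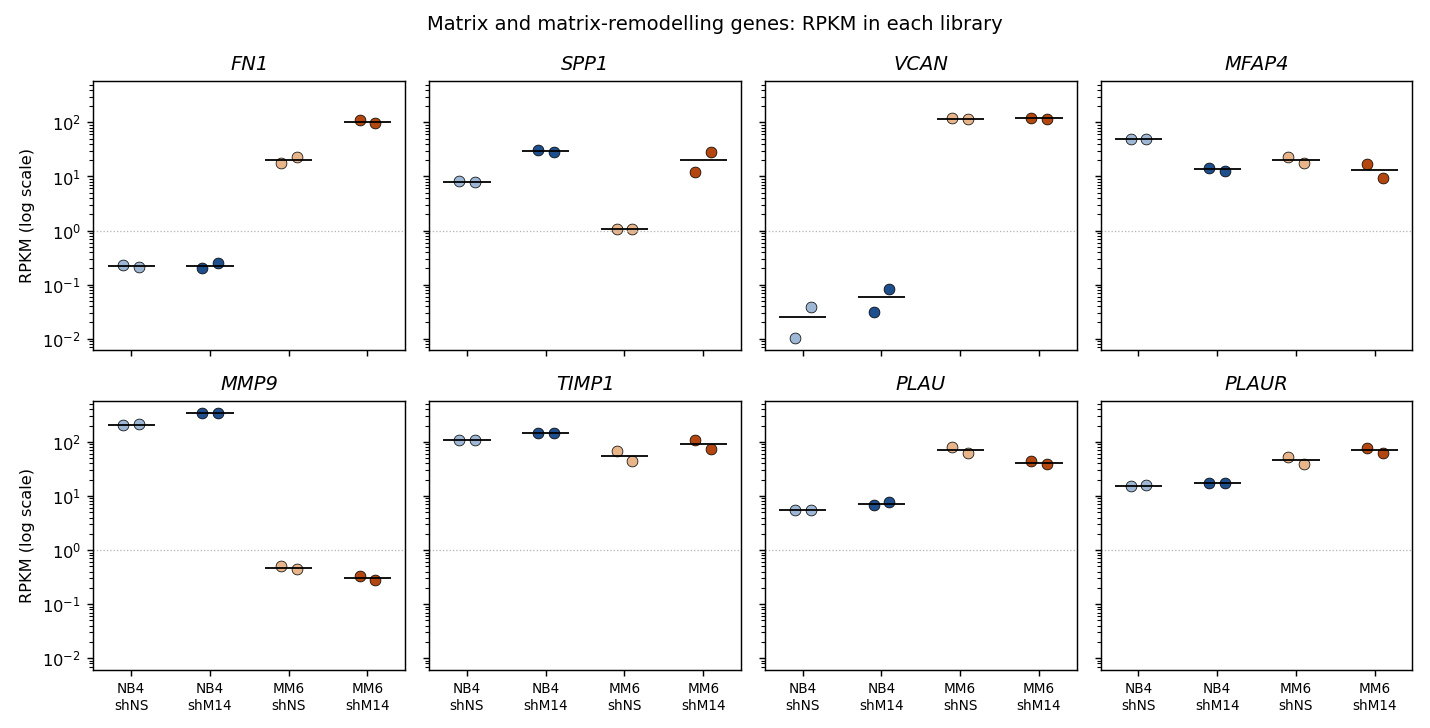
RPKM of the 8 members in each library. Each panel is 1 gene, the y axis is RPKM on a log scale, points are the 2 libraries of a group and bars their mean. FN1 and VCAN lie above 17 RPKM in MM6 and below 1 RPKM (dotted line) in NB4, MMP9 does the reverse, and SPP1 is higher with shM14 in both lines.

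VCAN (gene ID 1462) encodes versican, a large chondroitin sulfate proteoglycan that monocytes are known to make. MM6 cells had 121 and 115 RPKM in the controls and 121 and 117 RPKM with shM14, and the groups overlapped. The MM6 difference was 0.01 (SE 0.13) on the log2(RPKM + 1) scale, from 72999 and 76370 reads. In NB4 VCAN had 0.0103 and 0.0391 RPKM in the controls and 0.0317 and 0.0844 RPKM with shM14, from 17 and 37 reads. In each NB4 group replicate 2 was the higher, as it was for ELANE. FN1, also low in NB4, had that order with shM14 but not in the controls, at 0.235 and 0.216 RPKM in replicates 1 and 2. The part of the ELANE pattern in the VCAN values was not tested.

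MFAP4 (gene ID 4239) encodes a glycoprotein that binds elastic microfibrils. It had 50.0 and 48.6 RPKM in the NB4 controls and 14.3 and 12.8 RPKM with shM14. The NB4 groups were far apart, with means of 49.3 ± 1.02 and 13.5 ± 1.04 RPKM (SD, n = 2 each). The control level was 3.64-fold the shM14 level, a difference of -1.79 (SE 0.06) on the log2(RPKM + 1) scale, and 9 genes fitted in NB4 had a larger fall. The MM6 controls had 22.9 and 17.7 RPKM, beside 17.0 and 9.31 RPKM with shM14. The MM6 groups did not overlap, but the gap from 17.0 to 17.7 RPKM was small beside the spread within them. The MM6 difference was -0.63 (SE 0.29) on the same scale, and without shM14 replicate 2 it was -0.23. NB4 shM14 and MM6 shM14 overlapped in level. MFAP4 overlaps MAPK7 on the other strand, which had 6.29 to 7.11 RPKM in NB4 and 1.86 to 2.56 RPKM in MM6, and the strand used in counting is not given in the sources used here.

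MMP9 (gene ID 4318) encodes gelatinase B, a metalloproteinase that neutrophils and macrophages are known to release. In NB4 it had 202 and 215 RPKM in the controls and 346 and 343 RPKM with shM14, and both shM14 libraries lay above both controls. The means were 208 ± 9.07 and 344 ± 2.09 RPKM (SD, n = 2 each), a 1.65-fold difference, or 0.72 (SE 0.05) on the log2(RPKM + 1) scale. In NB4 225 genes had a larger rise. In MM6 it had 0.503 and 0.444 RPKM in the controls and 0.330 and 0.276 RPKM with shM14. These MM6 groups did not overlap, and shM14 was the lower, but they rested on 55 and 37 reads and the gene was not fitted there. In the controls NB4 held 440-fold the MM6 level.

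TIMP1 (gene ID 7076) encodes a secreted inhibitor of metalloproteinases, MMP9 among them. In NB4 it had 108 and 107 RPKM in the controls and 148 and 147 RPKM with shM14. The MM6 controls had 66.7 and 44.0 RPKM, beside 107 and 74.1 RPKM with shM14. The shM14 libraries were the higher in both lines without overlap, but the MM6 replicates lay far apart. The difference was 1.38-fold in NB4, or 0.46 (SE 0.04) on the log2(RPKM + 1) scale, and 1.64-fold in MM6, or 0.71 (SE 0.27). A larger rise was seen for 648 genes fitted in NB4 and for 272 in MM6. Its levels in NB4 shNS and MM6 shM14 were not separated. The overlapping gene on the other strand, SYN1, had 15 to 103 reads per library.

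The ratio of MMP9 to TIMP1 RPKM was 1.88 and 2.01 in the NB4 controls and 2.33 in each NB4 shM14 library. In MM6 it was 0.00754 and 0.0101 in the controls and 0.00308 and 0.00372 with shM14. The protease transcript thus exceeded the inhibitor transcript in every NB4 library, and was under it in every MM6 library. The ratio was higher with shM14 in NB4 and lower with shM14 in MM6.

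PLAU (gene ID 5328) encodes urokinase, the protease that turns plasminogen into plasmin. In NB4 it had 5.50 and 5.47 RPKM in the controls and 6.69 and 7.67 RPKM with shM14. MM6 controls had 80.5 and 63.3 RPKM, beside 44.2 and 38.3 RPKM with shM14. The shM14 libraries were thus the higher in NB4 and the lower in MM6, with no overlap in either line. The NB4 difference was 1.31-fold, or 0.33 (SE 0.07) on the log2(RPKM + 1) scale, and 1205 genes fitted in NB4 had a larger rise. The MM6 shM14 level was 0.574 of the control level, or -0.78 (SE 0.17), and 239 genes fitted in MM6 had a larger fall. C10orf55, on the other strand, had 5 to 85 reads per library.

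PLAUR (gene ID 5329) encodes the urokinase receptor, which holds PLAU at the cell surface. In NB4 it had 15.4 and 15.9 RPKM in the controls and 17.7 and 17.4 RPKM with shM14. In MM6 it had 52.5 and 39.1 RPKM in the controls and 76.8 and 62.8 RPKM with shM14. The shM14 libraries were the higher in both lines without overlap. The difference was 1.12-fold in NB4, or 0.16 (SE 0.05) on the log2(RPKM + 1) scale, and 1.53-fold in MM6, or 0.61 (SE 0.20). A larger rise was seen for 2949 of 11531 genes fitted in NB4 and for 372 of 11895 in MM6.

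The ratio of PLAU to PLAUR RPKM was 1.54 and 1.62 in the MM6 controls and 0.576 and 0.610 with shM14. In NB4 it was 0.358 and 0.344 in the controls and 0.378 and 0.440 with shM14. Urokinase transcript thus exceeded receptor transcript in the MM6 controls and in no other group. The plot of RPKM ratios gives each library for both pairs.

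**Figure D3:**
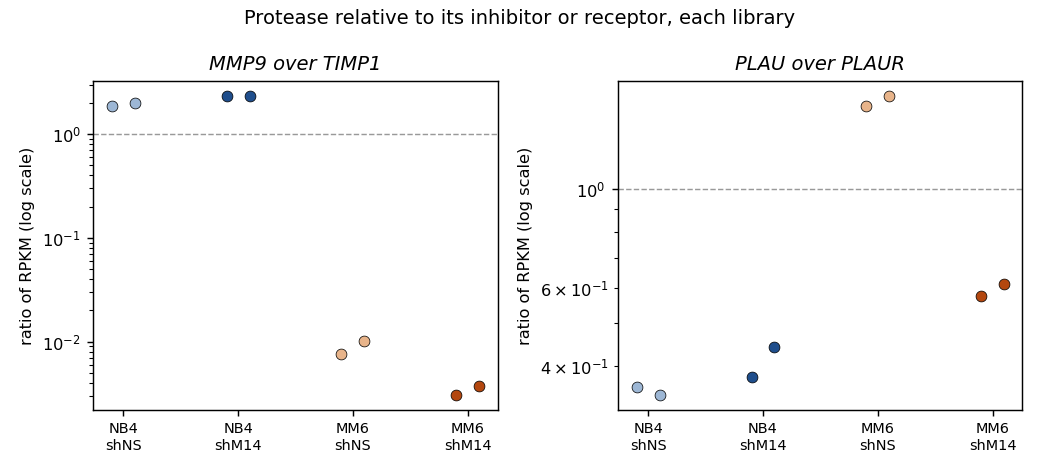
RPKM ratio of MMP9 to TIMP1 (left) and of PLAU to PLAUR (right) in each library, on log axes; each point is 1 library and the dashed line marks a ratio of 1. PLAU over PLAUR lies above 1 in the MM6 controls (1.54 and 1.62) and below it elsewhere, and MMP9 over TIMP1 lies above 1 in NB4 and at or under 0.0101 in MM6.

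Set together, the members' summed level was 389 and 400 RPKM in the NB4 controls and 564 and 557 RPKM with shM14. In MM6 it was 363 and 304 RPKM in the controls and 487 and 425 RPKM with shM14. MMP9 made up the largest share in NB4, from 52.0% to 61.5%, and VCAN in MM6, from 24.7% to 37.9%. The next gene after VCAN was PLAU in both MM6 controls and FN1 in both MM6 shM14 libraries. In bulk RNA a higher share of cells that make a transcript and more transcript per cell cannot be told apart.

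In NB4 6 of the 8 members passed the filter of at least 1 RPKM in at least 2 libraries. Of these, 5 were higher and 1 was lower with shM14 without overlap, beside 37.2% of all fitted genes higher and 40.0% lower. In MM6 7 members passed the filter. Of these, 4 were higher and 2 lower without overlap, beside 19.0% and 25.8% of fitted genes. Since the same contrasts chose the members, nothing is read from these counts. Nor is anything read from the median difference over the fitted members, which was 0.40 in NB4 and 0.61 in MM6. In a model over both lines the shared difference was 2.50 (SE 0.33) for SPP1, 1.15 (SE 0.41) for FN1, 0.58 (SE 0.16) for TIMP1, 0.38 (SE 0.13) for PLAUR and 0.27 (SE 0.17) for MMP9. It was 0.03 (SE 0.06) for VCAN, -0.22 (SE 0.22) for PLAU and -1.21 (SE 0.26) for MFAP4. The MM6 difference minus the NB4 difference was 2.30 (SE 0.18) for FN1, 1.45 (SE 0.46) for SPP1, 1.16 (SE 0.36) for MFAP4, 0.45 (SE 0.22) for PLAUR and 0.25 (SE 0.32) for TIMP1. It was -0.04 (SE 0.11) for VCAN, -0.90 (SE 0.11) for MMP9 and -1.11 (SE 0.19) for PLAU. FN1 and VCAN entered these fits through MM6 and MMP9 through NB4, since each was under 1 RPKM in the other line. PLAU had opposite directions in the lines without overlap, as did 8.71% of the 10647 genes fitted in both lines. MMP9 also had opposite directions, but it was not fitted in MM6 and is not among those genes.

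**Figure D4:**
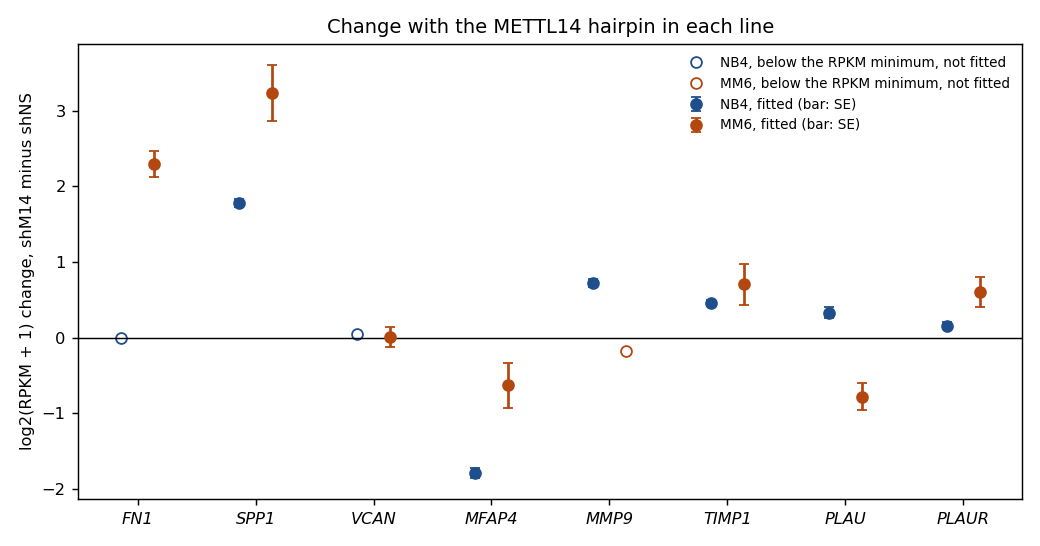
Difference in log2(RPKM + 1), shM14 minus shNS, for each member in NB4 (blue) and MM6 (orange). Filled points are fitted values with their SE as bars and open points are genes below 1 RPKM that were not fitted. SPP1 is the highest point in each line at 1.78 and 3.23, MFAP4 is negative in both lines, and PLAU and MMP9 have opposite signs in the lines.

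For all 8 members, the authors' deposited table gave log2 fold changes of the same sign in each line where the member was fitted. The authors' deposited table had 2.39 for FN1 in MM6. For SPP1 the authors' deposited table had 1.93 in NB4 and 4.24 in MM6, which is farther from 0 than the values on the log2(RPKM + 1) scale.

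The summed level of monocyte markers was also higher with shM14 in both lines. With shM14 the summed monocyte and macrophage list was 159 to 161 RPKM in NB4, above the controls' 59.5 to 63.7 RPKM. In MM6 it was 16293 to 26370 RPKM with shM14, above the controls' 10226 to 15549 RPKM. By limma with Benjamini-Hochberg adjustment, 9 of its 11 fitted genes rose and none fell in NB4, beside 22.1% of all fitted genes upward. With all 8 libraries in 1 model, 5 of 16 fitted genes of the list passed in NB4, beside 1658 of all 12804 genes. In MM6 none of its 15 fitted genes passed with limma on that line alone, beside 9 of all 11895 genes. With voom on recovered reads 1 passed, beside 39 of all genes. With all 8 libraries in 1 model, 9 of 16 fitted genes of the list passed in MM6, beside 1311 of all 12804 genes. An unadjusted p under 0.05 was found for 11 of the 15, beside 15.0% of all genes fitted in MM6. CD14, the lipopolysaccharide co-receptor, had 0.111 and 0.105 RPKM in the NB4 controls, so a defining monocyte marker was close to 0 there. The promyelocyte granule list was lower with shM14 in NB4, at 2400 to 2444 RPKM. There 5 of its 8 genes fell and 2 rose, beside 25.2% of all fitted genes downward and 22.1% upward. In MM6 the sum was 4793 to 5214 RPKM with shM14, and none of the 8 genes passed with limma. The MM6 differences were negative for 5 genes and positive for 3, with a median of -0.61, and 7 had an unadjusted p under 0.05. A lymphoid list, 5 of 8 genes with a row, summed to 76.8 to 80.3 RPKM in the NB4 controls and 115 to 118 RPKM with shM14, and both fitted genes rose. In MM6 the lymphoid sum was 139 to 141 RPKM in the controls and 131 RPKM in each shM14 library. The part of these markers in the members' values was not tested. Of 10 fibroblast and stroma markers 6 have a row, and 5 of the 6 were under 1 RPKM in each group. Their summed level was 4.37 to 4.65 RPKM in the NB4 controls, 1.70 to 2.43 with NB4 shM14, 19.5 to 32.3 in the MM6 controls and 15.7 to 21.9 with MM6 shM14. Most of the MM6 sum was FAP, at 30.2 and 17.6 RPKM in the controls and 20.0 and 13.6 RPKM with shM14.

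Beyond the members, 7 lists of other matrix genes named 235 genes, of which 170 have a row. They exclude the members, but they were drawn up with earlier results of these data known. In NB4, 79 of the 170 were fitted, 31 rose, 26 fell and 22 did not pass the threshold. The share past it was 72.2% of the 79, beside 47.4% of all fitted genes, 22.1% upward and 25.2% downward. With all 8 libraries in 1 model, which fitted 107 of the 170, the number past it in NB4 was 31 in place of 57. That model passed 1658 of all 12804 fitted genes in NB4, and it fitted more genes of every list. By list the number past the threshold was 3 in place of 6 receptors and 8 in place of 13 glycoproteins and proteoglycans. It was 6 in place of 7 collagens and 4 in place of 10 metalloproteinases. It was 3 in place of 8 inhibitors, 1 in place of 5 plasminogen genes and 6 in place of 8 cross-linking genes. In MM6 95 were fitted and none passed with limma, beside 9 of all 11895 genes fitted there. METTL14, the targeted gene, had a difference of -0.88 in MM6 and did not pass either. Of the 95, 30 had an unadjusted p under 0.05. With voom on recovered reads 2 of the list genes passed in MM6, LAMA3 and SULF2, beside 39 of all 11895 genes. With all 8 libraries in 1 model 22 of 107 passed in MM6, beside 1311 of all 12804 genes. With the replicate number as a block 26 of 95 passed, beside 1405 of all 11895 genes. Under both settings these included ITGA4, LAMA3, COL23A1, MMP2 and SULF2. SULF2 reached 1 RPKM in MM6 only with shM14, so its entry into the fits rested on that group. The background in MM6 was 15.0% of fitted genes at an unadjusted p under 0.05.

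Among the receptors that bind fibronectin and osteopontin, 5 of 10 fitted genes rose and 1 fell in NB4. Over all genes fitted in NB4, 22.1% rose and 25.2% fell. The median difference of the list was 0.24, beside -0.01 over all genes. SDC2, the heparan sulfate proteoglycan syndecan-2, rose from 8.66 ± 0.088 to 18.5 ± 0.718 RPKM (SD, n = 2 each; log2 difference 1.01, SE 0.05, limma adjusted p = 0.00042). ITGB1, the integrin beta chain shared by several fibronectin receptors, rose from 41.2 ± 1.82 to 65.1 ± 1.40 RPKM (adjusted p = 0.0012 by limma). CD44, a receptor of hyaluronan and osteopontin, rose from 75.9 ± 0.511 to 106 ± 1.12 RPKM (adjusted p = 0.0016 by limma), but did not pass with all 8 libraries in 1 model (adjusted p = 0.24, from a range of 3.5e-10 to 0.24 over the alternatives). ITGA2B, the platelet fibrinogen receptor chain, fell from 6.08 ± 0.36 to 2.24 ± 0.117 RPKM (adjusted p = 0.00046 by limma). In MM6 none of 9 fitted receptors passed. The integrin chain ITGA4 had 103 ± 2.89 RPKM in the MM6 controls and 60.8 ± 7.08 RPKM with shM14 (limma adjusted p = 0.14).

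Of the other matrix glycoproteins and proteoglycans, 7 of 17 fitted genes rose and 6 fell in NB4, beside 22.1% and 25.2% of all fitted genes. THBS1, thrombospondin-1, had 3.62 and 3.31 RPKM in the NB4 controls and 62.7 and 63.5 RPKM with shM14 (log2 difference 3.84, SE 0.05, limma adjusted p = 8.6e-05). In MM6 it had 10.4 and 2.90 RPKM in the controls and 84.3 and 17.3 RPKM with shM14, so the groups did not overlap but the replicates were far apart (limma adjusted p = 0.25). EMILIN2, an elastin interface protein, rose from 17.9 ± 0.611 to 34.6 ± 0.523 RPKM in NB4 (limma adjusted p = 0.00049). EFEMP2, the elastic fibre protein fibulin-4, fell from 8.52 ± 0.182 to 3.93 ± 0.00956 RPKM (limma adjusted p = 0.0004). SPARC, osteonectin, fell from 6.32 ± 0.0386 to 3.20 ± 0.129 RPKM (limma adjusted p = 0.00058). In MM6 LAMA3, a laminin chain, had 4.49 ± 0.0759 RPKM in the controls and 1.59 ± 0.227 RPKM with shM14 (limma adjusted p = 0.073).

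Collagen genes were the list with the lowest median in NB4, at -0.79. There 6 of 9 fitted collagens fell and 1 rose, beside 25.2% and 22.1% of all fitted genes. COL6A1, a chain of type VI collagen, fell from 9.12 ± 0.273 to 2.30 ± 0.112 RPKM (log2 difference -1.62, SE 0.05, limma adjusted p = 0.00015). COL6A2, its partner chain, had 1.83 ± 0.0763 RPKM in the controls and 0.420 ± 0.0996 RPKM with shM14. It passed the filter only through the controls, and COL7A1, the collagen that rose, only through shM14. No p-value is given for either, although the counts include them. COL27A1 fell from 6.16 ± 0.0558 to 2.77 ± 0.18 RPKM (limma adjusted p = 0.00055). In MM6 none of 11 passed, and 9 of the 11 had a negative sign with a median of -0.23. COL23A1, a transmembrane collagen, had 13.2 ± 2.55 RPKM in the MM6 controls and 3.86 ± 0.676 RPKM with shM14 (limma adjusted p = 0.069).

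Of the other metalloproteinases, 8 of 14 fitted genes rose and 2 fell in NB4, beside 22.1% and 25.2% of all fitted genes. The median difference of the list was 0.21. MMP2, gelatinase A, had 0.864 ± 0.0674 RPKM in the controls and 2.51 ± 0.22 RPKM with shM14 (log2 difference 0.91, SE 0.06). MMP19 had 0.615 ± 0.0303 RPKM in the controls and 1.75 ± 0.118 RPKM with shM14. MMP2 and MMP19 were under 1 RPKM in the NB4 controls and passed the filter there only through shM14. No NB4 p-value is given for them, although the count of 8 includes them. MMP14, a membrane-bound metalloproteinase, fell from 66.5 ± 1.64 to 45.6 ± 1.46 RPKM (limma adjusted p = 0.0017). With shM14 in NB4, MMP14 remained the most abundant of these 3 genes per length of gene model. In MM6 none of 11 passed, and MMP2 had 8.28 ± 1.24 RPKM in the controls and 15.8 ± 1.91 RPKM with shM14 (limma adjusted p = 0.14).

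Protease inhibitors were divided in NB4, with 4 of 10 fitted genes up and 4 down, beside 22.1% and 25.2% of all fitted genes. RECK, a membrane inhibitor of metalloproteinases, fell from 2.06 ± 0.0564 to 1.25 ± 0.00275 RPKM in NB4 (limma adjusted p = 0.002). CST3, the protease inhibitor cystatin C, rose from 11.2 ± 0.248 to 15.5 ± 0.252 RPKM (limma adjusted p = 0.0022). None of 13 inhibitors passed in MM6.

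The remaining lists cover plasminogen activation and the maturation of matrix. In NB4 1 of 5 fitted plasminogen genes rose and 4 fell, beside 22.1% and 25.2% of all fitted genes. None of the 4 falls passed with all 8 libraries in 1 model. ANXA2, annexin A2, a cell surface binding partner of plasminogen, rose from 33.9 ± 0.478 to 61.7 ± 3.76 RPKM (limma adjusted p = 0.0008). Its partner S100A10 fell from 70.2 ± 4.32 to 47.5 ± 0.564 RPKM (limma adjusted p = 0.0023), but did not pass with all 8 libraries in 1 model (adjusted p = 0.19, from a range of 1e-07 to 0.19 over the alternatives). Of 14 fitted genes for cross-linking, collagen maturation and hyaluronan, 5 rose and 3 fell in NB4, beside the same 22.1% and 25.2%. PLOD3, a lysyl hydroxylase, rose from 19.3 ± 0.113 to 27.1 ± 0.438 RPKM (limma adjusted p = 0.0018). LOXL4, a lysyl oxidase, fell from 3.17 ± 0.357 to 1.10 ± 0.247 RPKM (limma adjusted p = 0.0021). None of 7 and none of 16 passed in MM6. There SULF2, a heparan sulfatase, had 0.318 ± 0.0517 RPKM in the controls and 2.23 ± 0.38 RPKM with shM14. It passed the filter only through shM14, so no p-value is given.

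**Figure D5:**
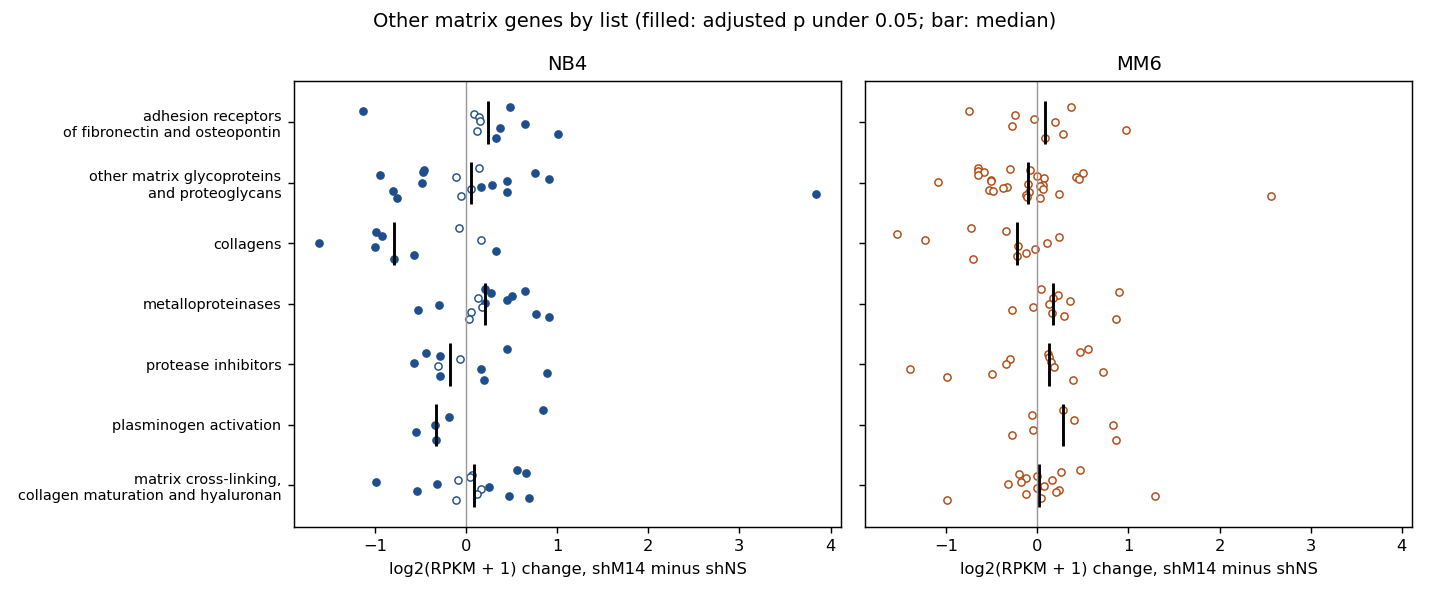
Difference in log2(RPKM + 1), shM14 minus shNS, of the fitted genes of 7 other matrix lists in NB4 (left) and MM6 (right). Each point is 1 gene, filled where the adjusted p is under 0.05, and the black bar is the list median. In NB4 the collagens have the lowest median at -0.79 and THBS1 is the highest point at 3.84, and no point is filled in MM6.

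In the model over both lines, 107 of the 170 genes were fitted, of which 14 rose and 7 fell. The share past the threshold was 19.6%, beside 11.9% of all fitted genes. MMP2 rose by 0.89 (SE 0.09, limma adjusted p = 0.0027) and ADAM15, a metalloproteinase with an integrin-binding domain, by 0.77 (SE 0.09, limma adjusted p = 0.004). CST3 rose by 0.46 (SE 0.06, limma adjusted p = 0.0057), EMILIN2 by 0.67 (SE 0.10, limma adjusted p = 0.0082) and THBS1 by 3.21 (SE 0.52, limma adjusted p = 0.0097). COL23A1 fell by 1.27 (SE 0.14, limma adjusted p = 0.0035) and EFEMP2 by 0.80 (SE 0.10, limma adjusted p = 0.0049). These 7 genes kept their call when any 1 library was left out. The count of 21 genes did not: it was 11 without either NB4 control library and 10 without either NB4 shM14 library. For the difference between lines, 12 of the 107 genes passed, beside 2.92% of all fitted genes, and none passed when any 1 of the 4 NB4 libraries was left out.

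The genes whose pattern was most like that of FN1 and SPP1 were sought among 9122 genes by Pearson correlation of log2(RPKM + 1) over the 8 libraries, centred within each line. This is a description, and all points share the same libraries. FN1 was under 1 RPKM in NB4, so its pattern rests mainly on the MM6 libraries. For FN1 the nearest were SMPDL3A (0.9987), CCDC149 (0.9973), CD300A (0.9961), AMPD3 (0.9927) and CORO1A (0.9922). SMPDL3A had 9.84 and 11.4 RPKM in the MM6 controls and 24.7 and 22.3 RPKM with shM14, and at most 0.0352 RPKM in NB4. CORO1A, an actin-binding protein of leukocytes, had 20.5 and 24.8 RPKM in the MM6 controls and 54.6 and 56.2 RPKM with shM14, beside 169 to 186 RPKM in NB4. For SPP1 the nearest were NLN (0.9968), UBAC1 (0.9956), PPP2R5A (0.9936), FAM127A (0.9929) and CSF1R (0.9922). The correlation does not weigh the size of a difference. NLN differed by 0.23 in NB4 and 0.43 in MM6 on the log2(RPKM + 1) scale, beside 1.78 and 3.23 for SPP1. CSF1R, the receptor of macrophage colony-stimulating factor, had 3.96 and 4.34 RPKM in the NB4 controls and 6.32 and 6.46 RPKM with shM14. In MM6 it had 1.29 and 1.43 RPKM in the controls and 3.08 and 3.76 RPKM with shM14, so like SPP1 it was higher with shM14 in every library of both lines.

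Because METTL14 serves m6A, the letters GGACT, which match a common m6A context, were counted in the longest protein-coding transcript of each gene in GENCODE 29. MFAP4 had 5 matches in 1932 bases, or 2.59 per kilobase, more than 96.4% of 19669 genes. PLAU had 6 matches in 2658 bases, or 2.26 per kilobase, more than 93.7% of genes. SPP1 had 1.27 per kilobase, and the others lay from 0.621 for PLAUR to 0.913 for TIMP1, with FN1 at 0.786. The median over all genes was 0.927. A match is a description of letters and not a methylated site, and no m6A measurement was used here.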

How the data were processed

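Values were read for 8 libraries of NB4 and MM6 cells, 2 per group. RPKM per library is taken from the authors' deposited tables, 1 per line; no header states this unit, and it was inferred from the values. The deposited signal columns hold the authors' group means of scaled reads. A ratio column holds the authors' fold change, and the log2 column is its log2 per the file headers. The deposited p-value columns, from the authors' own test, were not used. The aligner, counter, genome build and counting strand are not given in the sources. Combining RPKM with the group means returned whole reads for 100% of the values (within 0.01 of a whole number), which gave the depths. Rows without a symbol, 27 of 16726, stayed in the fits.

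The fit kept genes with at least 1 RPKM in at least 2 of its libraries. It used limma 3.58.1 (R 4.3.3) on log2(RPKM + 1), moderated by empirical Bayes, and Benjamini-Hochberg adjustment over all fitted genes at 0.05. Each line was fitted alone. An additive model of line and hairpin gave the change common to both lines, and the interaction gave the MM6 change minus the NB4 change. The fits were also run on simulated data, in which libraries were independent. The outcome is not reported here, and no result rests on it. The members and lists were chosen with earlier results of these data known. The rule for names takes every member, METTL14, up to 4 genes with the smallest p of each list and fit, and the 5 genes most like FN1 and SPP1 with at least 5 RPKM in at least 2 libraries. Not all of these are reported here. ELANE, LYZ, CD14, MPO and FAP were named after their values were seen.

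The alternatives changed the pseudocount to 0.1, dropped the filter or raised it to 5 RPKM, added the replicate number as a block, scaled by median of ratios, put all 8 libraries in 1 model, or left out each library. An alternative with voom on recovered reads was added after the data were seen. Promoters came from the RefSeq table of GRCh38.p14. Software for tables and plots was Python 3.11.15 with pandas 2.3.3, numpy 2.4.6 and matplotlib 3.10.9.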

Additional observations from a re-analysis of the deposited data

Results flagged for a closer look

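Of the members, MMP9 and PLAU had opposite directions in the lines, with every shM14 library on one side of both controls in NB4 and on the other side in MM6. For MMP9 the log2(RPKM + 1) difference was 0.72 in NB4 and -0.18 in MM6. For PLAU it was 0.33 in NB4 and -0.78 in MM6. The MM6 value of MMP9 rests on 55 reads in the controls and 37 with shM14. The fitted MM6 difference minus the NB4 difference was -0.90 (SE 0.11) for MMP9 and -1.11 (SE 0.19) for PLAU. Since the members were chosen on these values, that is a description and no test is drawn from it. For PLAU, opposite directions without overlap compare with 8.71% of the 10647 genes fitted in both lines, of which MMP9 is not one.

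Of the 107 other matrix genes fitted over both lines, 12 had a knockdown change that differed between the lines by the interaction term of limma at an adjusted p of 0.05. That is a share of 11.2%, beside 2.92% of all fitted genes. The value is the MM6 change minus the NB4 change on the log2(RPKM + 1) scale. It was positive for COL6A1 (1.72), COL27A1 (1.16), SULF2 (1.14), SPARC (1.04), ITGA2B (1.02), LOXL4 (0.96) and THBS3 (0.65). It was negative for COL4A2 (-1.40), LAMA3 (-1.09), SPINT2 (-0.99), ITGA4 (-0.84) and COL15A1 (-0.70). COL6A1 fell by 1.62 in NB4 and had a difference of 0.11 in MM6, and SPARC fell by 0.80 in NB4 and had 0.24 in MM6. LAMA3 and the protease inhibitor gene SPINT2 were under 0.1 RPKM in NB4, and COL15A1 and SULF2 were under 1 RPKM there, so their values rest mainly on MM6. In MM6 COL15A1 reached 1 RPKM only in the controls and SULF2 only with shM14, so each passed the filter through 1 group. ITGA2B and LOXL4 were under 1 RPKM in MM6, so their values rest on NB4. With a pseudocount of 0.1, ITGA2B, LOXL4, COL27A1, COL4A2, ITGA4 and SPINT2 did not pass. COL4A2 also did not pass without the filter, with a filter of 5 RPKM or with median-of-ratios scaling. With voom COL4A2, COL15A1, ITGA2B, LAMA3, LOXL4, SPINT2, SULF2 and THBS3 did not pass. None of the 12 passed when any 1 of the 4 NB4 libraries was left out, and without either MM6 control the count was 6.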

How the results depend on the processing

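No result past its threshold changed direction under the alternatives run. Without 1 library, the differences of FN1 in NB4 (-0.03 to 0.03) and of VCAN in MM6 (-0.03 to 0.04) changed sign around 0. The number of genes past the threshold within NB4 was 5460 of 11531, and 1658 of 12804 with all 8 libraries in 1 model. Within MM6 it was 9, with none without the filter (0), 4 with a filter of 5 RPKM, 3 with median-of-ratios scaling, 1311 with all 8 libraries in 1 model and 39 with voom. For the difference between lines it was 374, with 203 at a pseudocount of 0.1 and 207 with voom. The other matrix genes past it were 57 of 79 in NB4 and 31 of 107 with all 8 libraries in 1 model. They were 0 of 95 in MM6, 22 of 107 with all 8 libraries in 1 model and 2 of 95 with voom. They were 21 in the common fit and 33 with voom. For the difference they were 12, with 6 at a pseudocount of 0.1, 6 with a filter of 5 RPKM and 5 with voom. The cause was not tested, except that all 8 libraries in 1 model share 1 spread.

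Leaving out each library gave 3049 to 4637 genes in NB4, 5 to 23 in MM6, 496 to 1926 in the common fit (1523 with all) and 5 to 742 for the difference. For the other matrix genes it gave 41 to 52, 0 to 1, 10 to 25 and 0 to 18. The 3049 and 3260 genes in NB4 came without shM14 replicates 1 and 2, and the 23 and 14 genes in MM6 without shNS replicate 1 and shM14 replicate 2.

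The replicate numbers are shared between groups, but the labels state no pairing and each line has 2 numbers, so the libraries share only a number. With the number as a block, the replicate block gave 5241 genes in NB4, 1405 in MM6, 1452 in common and 1143 for the difference. For the other matrix genes the block gave 55, 26, 22 and 29.

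Depth limits MMP9 in MM6, at 55 reads in the controls, and FN1 and VCAN in NB4, at 132 and 17 reads, and 2 libraries per group limit all tests.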
